A study of Mus musculus with 6 samples.

Results

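The genes described here are 40 genes of the cell cycle and of DNA replication. Of these, 20 were listed under S phase and 20 under G2 phase and mitosis (G2/M), although 5 of the 40 belong to both phases. They were chosen by gene symbol, and all 40 were found among the 18477 genes of the deposited expression table and among the 14579 genes that could be tested. Colon RNA came from male C57BL/6 mice, 6 to 8 weeks old, and each mouse gave 1 library. All mice drank water with 2% dextran sulfate sodium, abbreviated DSS, a polysaccharide that damages the lining of the colon, for the last 7 of 14 days. The DSS group (n = 3) was gavaged with PBS every day for 14 days, and the DSS+BV group (n = 3) with the gut bacterium *Bacteroides vulgatus* in PBS. Mice without DSS were not analysed here, so each value compares DSS+BV with DSS and not with an uninjured colon.

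Cells copy their DNA once in S phase and part the copies in mitosis. Before S phase, the E2F transcription factors switch on cyclin E, the licensing factors CDC6 and CDT1, the MCM helicase that unwinds DNA, the sliding clamp PCNA and the enzymes that make nucleotides. Later, FOXM1 and related factors switch on cyclin B, its kinase CDK1, the mitotic kinases, the spindle motors and the ubiquitin enzymes that end mitosis. In the colon, dividing cells sit mainly in the lower part of the crypts, which refill the epithelium and enlarge when it heals. Lymphoid tissue of the gut wall also holds dividing cells.

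Promoter words of cell cycle genes are shown first because the results below set one phase against the other. No kind of word was confined to a single phase. Promoters from RefSeq (GRCm38.p6) covered 300 bases, from 250 before to 50 after the transcription start, and 32 of the 40 members matched an entry, 17 of S phase and 15 of G2/M. Each was searched on both strands for E2F words (TTTCCCGC, TTTGGCGC, TTTCGCGC and TTTGCCGC), for the NF-Y box (CCAAT) and for the cell cycle homology region (TTTGAA or TTTAAA), a short element of genes that are switched on late in the cycle. E2F words can overlap each other, as they do in Mcm6. The 150 bases before the start are printed 5′ to 3′ in the direction of the gene, with these words in capitals, for 2 helicase subunits of S phase (Mcm6, chr1:128359706-128359855, minus strand, and Mcm3, chr1:20820313-20820462, minus strand) and for 3 genes of G2/M (Cdk1, chr10:69352913-69353062, minus strand, Cdc20, chr4:118437344-118437493, minus strand, and Kif11, chr19:37376232-37376381, plus strand). In this stretch Mcm3 holds NF-Y boxes alone, since its E2F words lie after the start.
Mcm6: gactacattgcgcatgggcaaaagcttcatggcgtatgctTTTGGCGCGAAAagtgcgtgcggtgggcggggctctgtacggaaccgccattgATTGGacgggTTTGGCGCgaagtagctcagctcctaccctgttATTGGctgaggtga
Mcm3: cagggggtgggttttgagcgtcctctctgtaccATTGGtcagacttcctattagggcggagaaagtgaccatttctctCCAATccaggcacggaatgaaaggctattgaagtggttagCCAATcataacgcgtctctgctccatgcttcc
Cdk1: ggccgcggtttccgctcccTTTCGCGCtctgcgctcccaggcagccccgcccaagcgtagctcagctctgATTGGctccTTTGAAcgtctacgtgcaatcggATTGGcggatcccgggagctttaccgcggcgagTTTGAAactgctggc
Cdc20: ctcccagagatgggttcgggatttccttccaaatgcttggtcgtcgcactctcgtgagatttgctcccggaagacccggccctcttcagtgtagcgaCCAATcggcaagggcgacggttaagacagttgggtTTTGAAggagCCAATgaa
Kif11: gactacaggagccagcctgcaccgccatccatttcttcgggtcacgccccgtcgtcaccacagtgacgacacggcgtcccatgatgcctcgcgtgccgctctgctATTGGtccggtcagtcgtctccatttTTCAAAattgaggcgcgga

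The homology region was found in 14 of the 15 G2/M promoters (93.3%) and in 7 of the 17 S phase promoters (41.2%), against 30.6% of all promoters in the table and 23.2% of those of tested genes. E2F words were found in 7 of the 17 S phase promoters (41.2%) and in 1 of the 15 G2/M promoters (6.67%), against 2.6% and 4.32%. That 1 G2/M promoter was Cdk1, which held words of all 3 kinds. The NF-Y box was found in 93.3% of G2/M, 70.6% of S phase and 41.1% of all promoters. An NF-Y box together with the homology region was present in 86.7% of G2/M, 35.3% of S phase and 12.2% of all promoters. Such matches describe the letters in these windows and do not show that a factor was bound.

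The 6 libraries summed to between 15293276 and 17254343 expected counts, the values that RSEM gives when it divides reads among genes. TMM scaling factors lay between 0.970 and 1.04, and the 100 most abundant genes took 18.3% to 21.6% of each library. Levels are given as CPM, the usual depth-scaled count, taken here on the TMM-adjusted library total. Replicate mice were farther apart than counting noise allows (chi-square per degree of freedom 42.9 to 118.6). All 15 markers of epithelium passed the filter on low counts, and Epcam, an epithelial adhesion protein, stood at 1264 to 1749 CPM. Passing this filter does not tell colon from small intestine, so it is no check of the tissue label. Of 5 small intestine markers, Lct and Apoa4 did not pass, Sis was listed at 0 in 1 library and reached 19.5 CPM, and Alpi ranged from 0.240 to 86.7 CPM. Fabp6, the last of them, had 0.54, 0.62 and 1.22 CPM in the DSS mice and 7.26, 1.91 and 2.34 CPM in the DSS+BV mice, and was called higher by DESeq2 (log2 fold change 2.29, adjusted p-value 0.041) and not by edgeR (adjusted p-value 0.318). In whole tissue, more dividing cells and more of these RNAs per cell cannot be told apart.

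In this colon tissue the 40 genes shared nearly one order of mice, and single mice differed more than the groups did. All 40 were highest in DSS 1, a rank that 18.8% of all tested genes shared. In the DSS 1 library, 38 of the 40 stood above 2 times their level in DSS 2 and in DSS 3, a pattern of 2.64% of tested genes, and the exceptions were Pcna and Cenpf. The 3 DSS+BV libraries fell inside the DSS range for all 40 (25.5% of tested genes), and for 38 they lay below DSS 1 and above both other DSS mice (7.61%), the exceptions being Cdc20 and Cenpf. Together the members took 0.347%, 0.107% and 0.0855% of the counts of the 3 DSS mice, in order, and 0.174%, 0.172% and 0.209% of those of the DSS+BV mice. The same 6 mice stand behind every member, so the 40 are not independent observations.

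**Figure D1:**
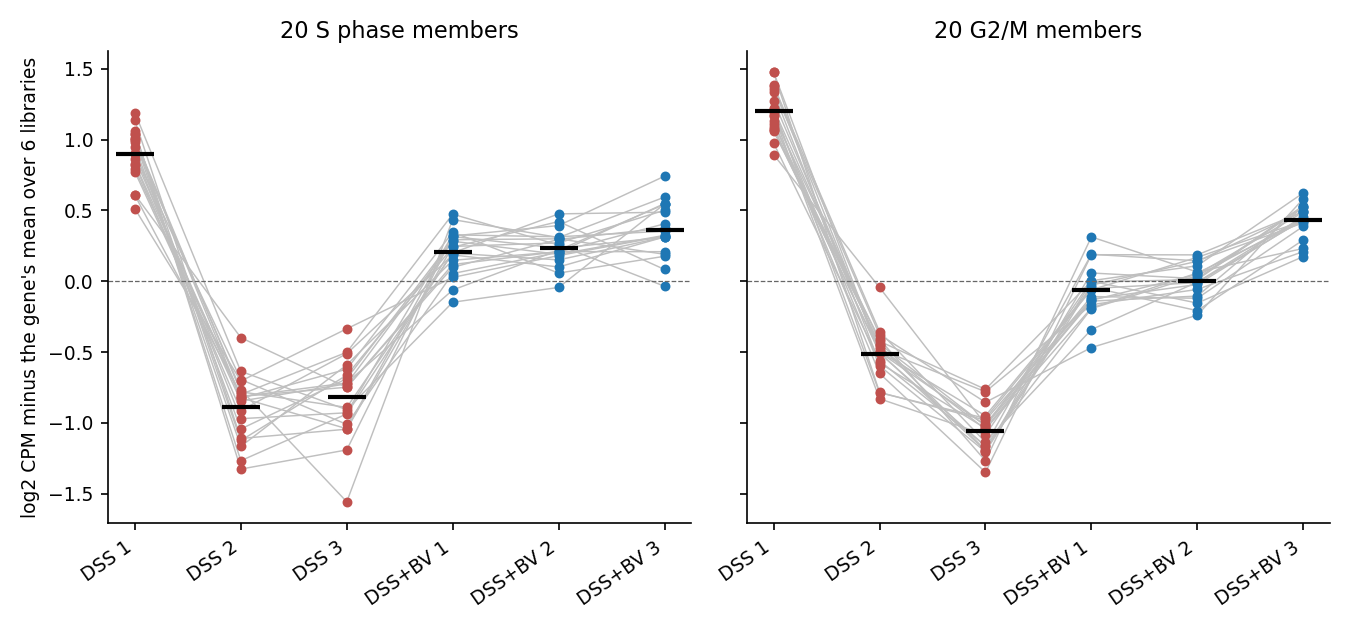
Level of each member in each library as log2 CPM minus the mean of that gene over the 6 libraries, with 20 S phase members on the left and 20 G2/M members on the right. Grey lines join the values of 1 gene, red and blue points are DSS and DSS+BV libraries, and black bars are the means (0.90, -0.88 and -0.81 for S phase and 1.2, -0.51 and -1.05 for G2/M in DSS 1, 2 and 3).

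Mice of the DSS group differed from each other more than mice of the DSS+BV group did. The SD of log2 CPM was larger in the DSS group for 40 of 40 members, against 66.6% of tested genes. Its median over the members was 1.12 for DSS and 0.209 for DSS+BV, where the medians over all tested genes were 0.315 and 0.202. Within the DSS group it ran from 0.622 for Pcna to 1.36 for Plk1, a kinase of mitotic entry. DSS 1 exceeded DSS 2 by 1.91-fold (Cenpf) to 5.23-fold (Uhrf1) and DSS 3 by 1.80-fold (Pcna) to 5.84-fold (Aurka). Among the 3 DSS+BV mice the highest and the lowest level differed by 1.03-fold (Mcm2) to 2.07-fold (Cdc20).

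Entry into S phase was read from the E2F factors and cyclin E. E2f1 (Entrez gene 13555), an activator of the S phase programme, had 13.1, 4.04 and 4.66 CPM in mice 1, 2 and 3 of the DSS group and 9.10, 7.45 and 8.09 CPM in mice 1, 2 and 3 of the DSS+BV group, the order kept below. E2f8 (108961), a repressor that E2F itself switches on, had 46.4, 13.8 and 7.98 CPM in the DSS mice and 31.7, 29.1 and 35.4 CPM in the DSS+BV mice. For both, every DSS+BV mouse was below DSS 1 and above the other DSS mice. The log2 fold change of DSS+BV against DSS was 0.18 (SE 0.47) for E2f1 and 0.50 (SE 0.60) for E2f8, with edgeR adjusted p-values of 0.897 and 0.759. Ccne1 (12447), which encodes cyclin E1, had 18.3, 4.6 and 5.88 CPM against 11.6, 11.7 and 10.8 CPM. Ccne2 (12448), for cyclin E2, had 18.4, 6.96 and 8.56 CPM against 16.8, 14.5 and 11.8 CPM. Ccne2 had the smallest unadjusted p-value of the 40 members, 0.412 in edgeR, with a log2 fold change of 0.34 (SE 0.39), and Ccne1 had 0.25 (SE 0.52). Uhrf1 (18140), which helps to copy DNA methylation behind the replication fork, had 92.3, 17.7 and 19.4 CPM against 55.2, 58.1 and 74.0 CPM. Its log2 fold change, 0.53 (SE 0.64), was the highest of the members and its edgeR adjusted p-value was 0.755.

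Among the DSS+BV mice the S phase members varied less (median SD of log2 CPM 0.142) than the G2/M members (0.287), and the helicase gene Mcm2 varied least. Mcm2 (17216), a subunit of the helicase, had 80.6, 22.0 and 22.7 CPM in the DSS mice and 54.1, 53.6 and 55.1 CPM in the DSS+BV mice. These are means of 41.8 ± 33.6 and 54.2 ± 0.757 (SD, n = 3 each), with a log2 fold change of 0.38 (SE 0.51) and an edgeR adjusted p-value of 0.785. Thus DSS 2 and DSS 3 were alike for this gene, as were the 3 DSS+BV mice at a higher level, and DSS 1 alone made the groups overlap. Mcm5 (17218) had 108, 22.8 and 23.9 CPM against 58.4, 59.4 and 69.7 CPM, and Mcm6 (17219), whose promoter is printed above, 142, 46.2 and 50.3 CPM against 101, 94.7 and 104 CPM. Their log2 fold changes were 0.28 (SE 0.61) and 0.33 (SE 0.43), with edgeR adjusted p-values of 0.875 and 0.776. Pcna (18538), the clamp that holds polymerases on DNA, had 165, 71.1 and 91.8 CPM against 118, 131 and 145 CPM. It had the narrowest 95% interval of the members, from -0.47 to 1.0 around a log2 fold change of 0.26, and the smallest spread among the DSS mice.

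The other S phase members kept the same order of DSS 1 over DSS+BV over the rest. They were the licensing factors Cdc6 and Cdt1, the helicase genes Mcm3, Mcm4 and Mcm7, Mcm10, which helps to start the helicase, the fork proteins Cdc45 and Gins2, and the nucleotide enzymes Rrm1, Rrm2 and Tyms. Their log2 fold changes lay between -0.05 (Gins2) and 0.40 (Cdc6), with edgeR adjusted p-values from 0.797 (Cdt1) to 0.978 (Gins2). Gins2 was the only S phase member with a negative value, and 2758 of its exon bases lie opposite those of Gse1 in GENCODE M21. Whether reads were counted by strand is not given in the sources used here, so reads from such overlaps could not be assigned. Exon overlaps of 52 to 977 bases on the opposite strand were present for Ccne2, E2f8, Cdc45, Mcm7, Ccna2, Cdc20, Kif20a, Plk1 and Ube2c, and Foxm1 shares 97 and 144 bases with genes on its own strand.

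**Figure D2:**
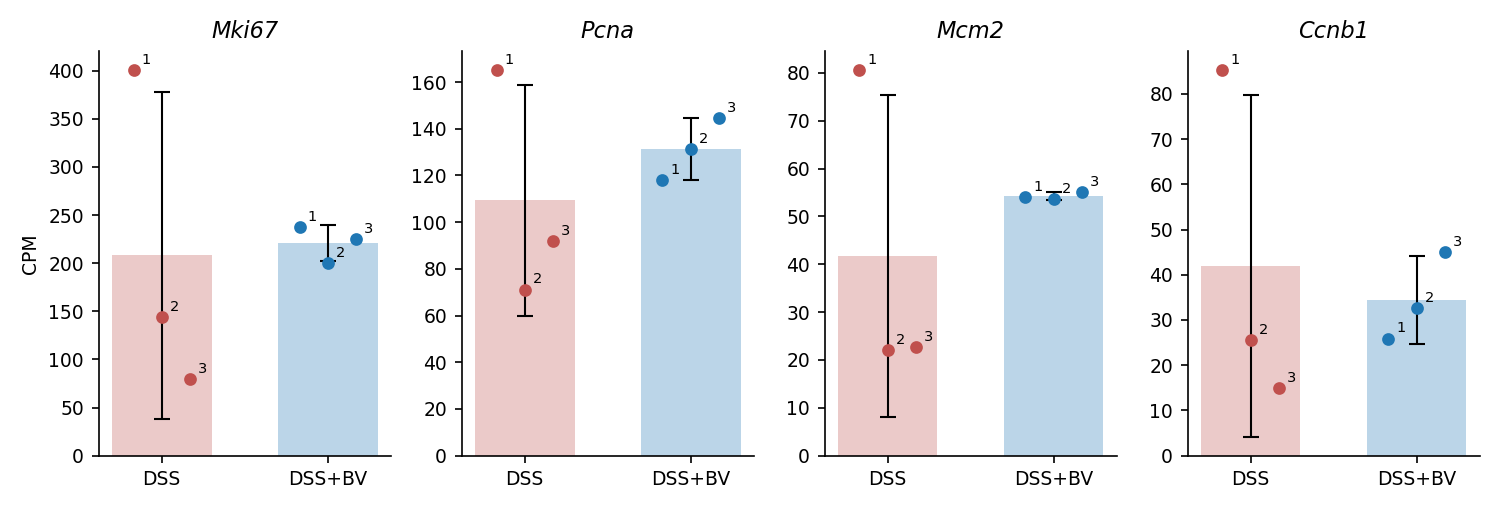
CPM of 4 members in each mouse. Bars are group means, error bars are the SD (n = 3) and the numbered points are single libraries, and in each panel DSS 1 is the highest point (401 CPM for Mki67, 165 for Pcna, 80.6 for Mcm2 and 85.3 for Ccnb1).

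Markers of cycling cells and regulators of G2 showed the high DSS 1 value as well. Mki67 (17345), the Ki-67 antigen used to stain cycling cells, had 401, 144 and 79.5 CPM in the DSS mice and 238, 200.2 and 225 CPM in the DSS+BV mice. Top2a (21973), the topoisomerase that untangles copied DNA, had 289, 95.8 and 59.3 CPM against 141, 138 and 196 CPM. Foxm1 (14235), the factor that drives late cell cycle genes, had 44.5, 15.4 and 10.1 CPM against 25.9, 25.0 and 30.2 CPM. In each of these genes DSS 3 was the lowest of the 6 mice and DSS 2 the next. The group means of Mki67 were 208 ± 169.9 and 221 ± 19.1 CPM (SD, n = 3 each). The log2 fold changes were 0.09 (SE 0.54) for Mki67, 0.10 (SE 0.56) for Top2a and 0.21 (SE 0.52) for Foxm1, with edgeR adjusted p-values of 0.961, 0.955 and 0.892.

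Over the G2/M members, DSS 1 exceeded the DSS+BV mean by a median of 2.0-fold, against 1.53-fold over the S phase members, and the highest of these ratios was that of Tpx2 (2.72-fold). Ccnb1 (268697), cyclin B1, had 85.3, 25.6 and 14.9 CPM in the DSS mice and 25.9, 32.6 and 45.0 CPM in the DSS+BV mice. Cdk1 (12534), its kinase partner, had 65.3, 22.0 and 16.1 CPM against 29.9, 30.8 and 41.9 CPM. In both, DSS+BV 3 was the highest of its group, and for Ccnb1 the DSS+BV 1 mouse was level with DSS 2. Their log2 fold changes were -0.28 (SE 0.62) and -0.01 (SE 0.52), with edgeR adjusted p-values of 0.875 and 0.996. Tpx2 (72119), which builds microtubules around chromosomes, had 88.7, 22.6 and 15.8 CPM against 31.0, 27.6 and 39.1 CPM. Its log2 fold change, -0.38 (SE 0.63), was the lowest of the 40 members, with an edgeR adjusted p-value of 0.828. Cenpe (229841), a motor protein of the kinetochore, had 63.6, 21.1 and 16.7 CPM against 28.4, 25.5 and 32.0 CPM, with a log2 fold change of -0.24 (SE 0.50).

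Birc5 (11799), survivin, which guides chromosome attachment with Aurora B, had 63.3, 18.8 and 15.3 CPM in the DSS mice and 23.3, 25.2 and 30.3 CPM in the DSS+BV mice. Cdc20 (107995), the activator of the anaphase-promoting complex, had 70.1, 21.1 and 15.1 CPM against 19.8, 23.2 and 41.0 CPM. Cdc20 was thus lower in DSS+BV 1 than in DSS 2 and spread most among the DSS+BV mice. The log2 fold changes were -0.30 (SE 0.54) for Birc5 and -0.34 (SE 0.60) for Cdc20, and the edgeR adjusted p-values were 0.838 and 0.840. The other G2/M members, among them the cyclins Ccna2 and Ccnb2, the kinases Plk1, Aurka, Aurkb, Bub1 and Bub1b, the centromere protein Cenpf, the motors Kif11 and Kif20a and the ubiquitin enzyme Ube2c, had log2 fold changes from -0.25 (Plk1) to 0.19 (Bub1). Each was highest in DSS 1 and lowest in DSS 3.

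The design asks whether *B. vulgatus* changed these genes in the injured colon. With the thresholds of the study (adjusted p-value below 0.05, log2 fold change beyond 1 in either direction), edgeR called 0 members lower and 0 higher in DSS+BV, where 0.0892% of all tested genes were called lower and 0% higher. At an unadjusted p-value under 0.05 the members gave 0 in either direction, against 9.12% of tested genes lower and 3.4% higher. DESeq2, the tool of the study, also called 0 members in either direction, against 1.78% of genes lower and 0.291% higher, and the smallest DESeq2 adjusted p-value of a member was 0.760. No member had groups that did not overlap, a state reached by 11.3% of tested genes on the lower side and 6.37% on the higher side.

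The sign of the values was not the same in both phases, and the difference between phases was not tested. The log2 fold change was above 0 for 19 of 20 S phase members and for 9 of 20 G2/M members. Its median was 0.27 over S phase, -0.04 over G2/M and 0.17 over all 40, and -0.01 over all tested genes. Group means of log2 CPM, averaged over the 20 genes, gave a positive difference for G2/M too (0.24, against 0.53 for S phase), so the sign for G2/M depended on the summary. All 40 intervals held 0. With this spread the 95% interval reached a median of 1.21 to either side for S phase and 1.37 for G2/M on the log2 scale. Smaller differences could not be told from 0 with this spread between mice. These widths are not a detection limit, since a call after adjustment would need an estimate still farther from 0.

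**Figure D3:**
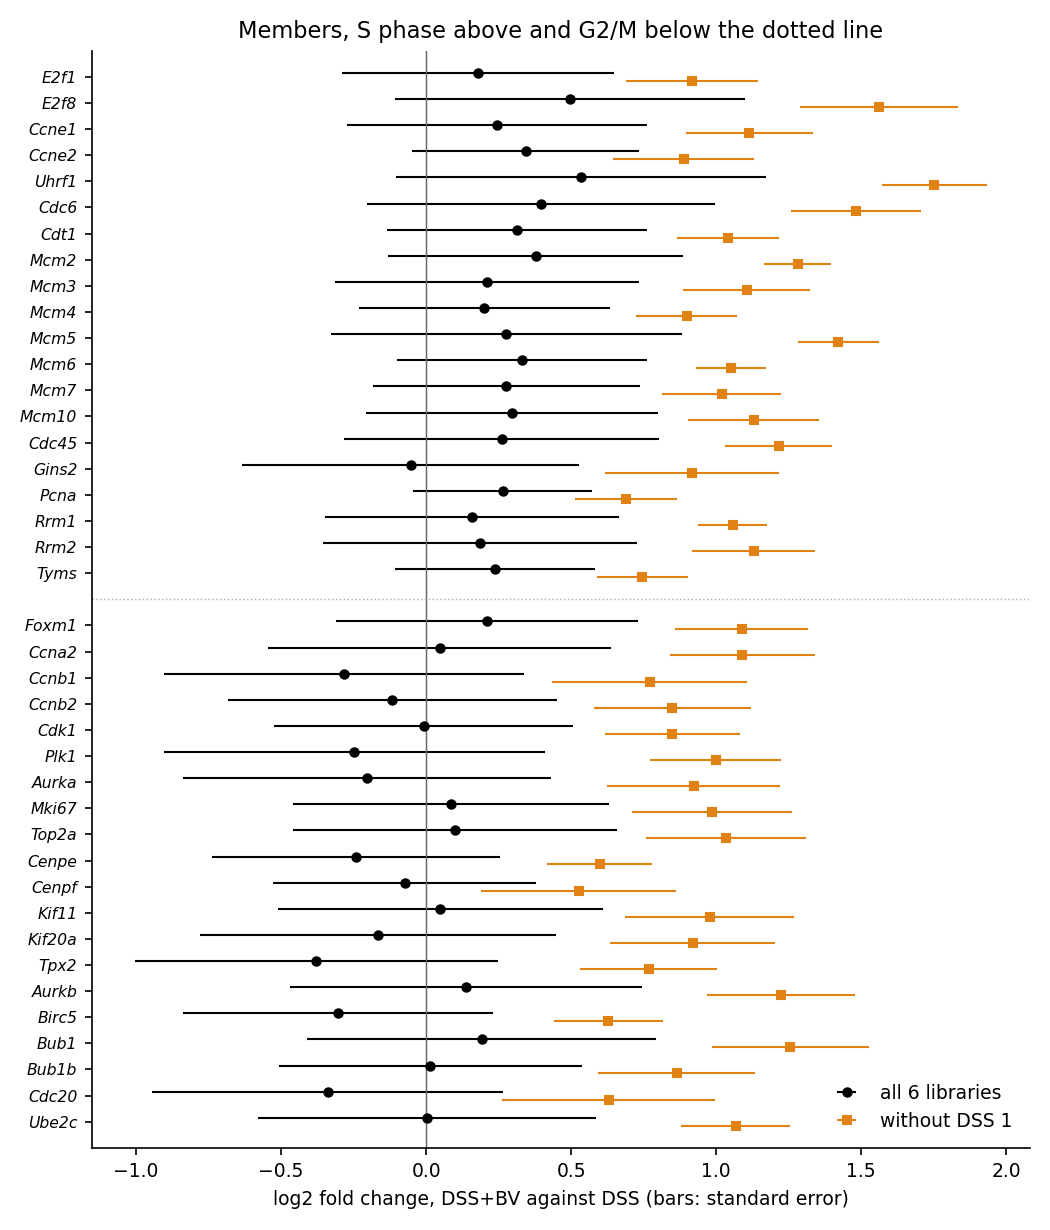
Log2 fold change of DSS+BV against DSS for each member, S phase genes above and G2/M genes below the dotted line, with bars of 1 standard error. Black circles use all 6 libraries and have a median of 0.17, and orange squares leave out DSS 1 and have a median of 1.01.

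Leaving out any 1 of the DSS mice moved these values, and leaving out DSS 1 moved them most. With DSS 1 left out, all 40 members had a log2 fold change above 0, from 0.53 (Cenpf) to 1.75 (Uhrf1), with medians of 1.08 for S phase and 0.92 for G2/M. In the fit without DSS 1, edgeR called 0 members and 0 of the 14846 genes tested, and adjusted p-values of the members ran from 0.0833 (Mcm2) to 0.449 (Cenpf). At an unadjusted p-value under 0.05, 37 members were higher, all 20 of S phase and 17 of G2/M, against 7.22% of genes. The groups of 2 and 3 mice did not overlap for 38 members, where 18.3% of genes reached this on the higher side. DESeq2 without DSS 1, an alternative chosen after seeing the data, called 21 members higher, 14 of S phase and 7 of G2/M, against 0.917% of genes, and 0 lower, against 3.27%. With DSS 2 or DSS 3 left out in its place, the median over the 40 members turned from 0.17 to -0.10 or -0.18, the S phase median was 0.04 or -0.0055, and neither edgeR nor DESeq2 called a member. Over all genes DESeq2 called 2.82% lower and 2.27% higher without DSS 2, and 0.715% lower and 0.153% higher without DSS 3. In edgeR 1 gene was called lower without DSS 2 and 0 without DSS 3, and 0 were called higher in either fit. DSS 1 was the highest library of each member, so leaving it out raises each value by construction, and nothing in the labels sets this mouse apart from the other DSS mice.

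The balance of S phase against G2/M was compared library by library. A score was taken as the mean log2 CPM over the 20 genes of a phase, each gene first centred on its mean over the 6 libraries. S phase scores were 0.90, -0.88 and -0.81 in the DSS mice and 0.20, 0.23 and 0.36 in the DSS+BV mice, in the order 1, 2 and 3. The G2/M scores were 1.2, -0.51 and -1.05 in the DSS mice and -0.07, 0.00 and 0.43 in the DSS+BV mice. DSS 2 and DSS 3 were thus nearly level in S phase genes and differed in G2/M genes. DSS 2 exceeded DSS 3 for 20 of 20 G2/M members and for 6 of 20 S phase members, against 49.2% of tested genes. DSS 3 was the lowest library for all 20 G2/M members and for 6 S phase members (26.2% of tested genes), while DSS 2 was the lowest for 14 S phase members (12.4%).

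The difference of the scores, S phase minus G2/M, was -0.30, -0.37 and 0.24 in the DSS mice and 0.27, 0.23 and -0.07 in the DSS+BV mice. Means were -0.15 ± 0.34 and 0.15 ± 0.18 (SD, n = 3 each), and DSS+BV exceeded DSS by 0.29 with groups that overlapped. DSS 3 lay with DSS+BV 1 and 2 on the S phase side, and DSS+BV 3 lay nearest to an even balance. The mice of neither group shared 1 sign. Leaving out the 5 members of both phases gave -0.33, -0.36 and 0.23 in the DSS mice and 0.28, 0.25 and -0.07 in the DSS+BV mice. With 40 other S phase and 48 other G2/M genes in place of the members, the library values were -0.18, -0.23 and 0.03 against 0.15, 0.21 and 0.02, a difference of 0.25. Such scores are relative to the mean of these 6 libraries and do not give the share of cells in a phase.

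**Figure D4:**
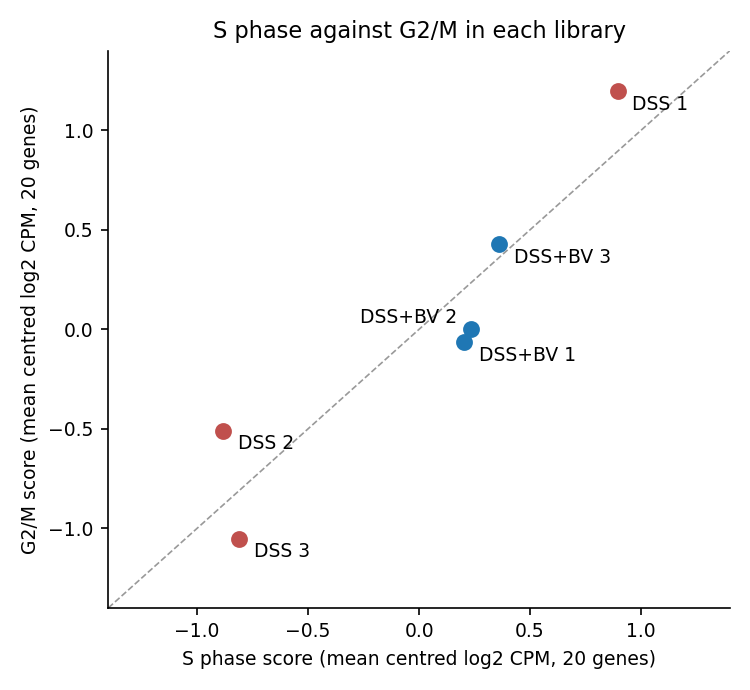
S phase score (x axis) against G2/M score (y axis) of each library, both as mean centred log2 CPM over 20 genes. Red points are DSS and blue points DSS+BV mice, and the dashed line marks equal scores, with DSS 2 at -0.88 and -0.51 above it and DSS 3 at -0.81 and -1.05 below it.

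Levels between genes were compared per length, as CPM per kilobase of the longest protein-coding transcript in GENCODE M21. Averaged over the 6 libraries, Pcna was the highest member at 79.3 CPM per kilobase, followed by Top2a at 29.3, Ccna2 at 28.5 and Rrm1 at 24.6. The lowest means were those of Gins2 at 2.44, Cenpf at 2.59 and E2f1 at 2.81, and these did not keep 1 order over the libraries (in DSS 1, 4.91, 4.46 and 4.74). The length used for Gins2, 3900 bases, comes from the gene whose exons lie opposite Gse1. The 6 subunits of the MCM helicase, which act as a ring of 1 copy each, stayed close to each other, and the highest exceeded the lowest by 1.58-fold (DSS+BV 1) to 1.95-fold (DSS+BV 3) within a library. Mcm7 was the highest subunit in 5 libraries and Mcm6 in DSS+BV 1. Mcm4 was the lowest in 4 libraries and Mcm2 in DSS 2 and DSS 3.

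As scores, the other genes of both phases were highest in DSS 1 and lowest in DSS 3. The other S phase genes scored 0.66, -0.59 and -0.70 in the DSS mice and 0.11, 0.18 and 0.34 in the DSS+BV mice, and the other G2/M genes 0.84, -0.35 and -0.73 against -0.04, -0.03 and 0.31. Their summed CPM differed over the libraries by 2.24-fold and 2.16-fold, and single genes departed from this order. Of 40 other S phase genes, edgeR called 0, with a median log2 fold change of 0.23, and at an unadjusted p-value under 0.05 only Gins4 was lower (-0.52, SE 0.21, adjusted p-value 0.393) and 0 were higher. Gins4, a partner of Gins2 in the GINS complex of the fork, had 22.7, 15.1 and 16.8 CPM in the DSS mice and 11.9, 12.9 and 13.4 CPM in the DSS+BV mice. Its groups did not overlap, a state of 11.3% of tested genes on the lower side. The next smallest p-values belonged to Cdca7 (0.85, SE 0.41) and Rfc2 (0.46, SE 0.26). Of 48 other G2/M genes edgeR called 0, with a median of -0.05, and only Tubb4b, a beta-tubulin, passed the unadjusted threshold (0.61, SE 0.23, edgeR adjusted p-value 0.378). Tubb4b had 592, 338 and 463 CPM against 679, 783 and 660.0 CPM, and Jpt1 (0.19) and Ndc80 (-0.50) came next.

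Of the 8 G1 cyclins, kinases and their regulators, edgeR called 0 (0 also at an unadjusted p-value under 0.05), and their median log2 fold change was 0.23. Cdk6, a kinase of early G1, had 27.9, 36.6 and 23.2 CPM in the DSS mice and 30.7, 47.1 and 60.3 CPM in the DSS+BV mice, with a log2 fold change of 0.66 (SE 0.29, edgeR adjusted p-value 0.413), followed by Cdc25a (0.28) and Cdk4 (0.30). CDK inhibitors and pocket proteins, which hold cells out of the cycle, were listed together with the E2F factors E2f4 and E2f5. As a score, this list did not share the order of the members. Its score was -0.07, 0.03 and -0.05 in the DSS mice and -0.19, 0.01 and 0.27 in the DSS+BV mice. The summed CPM of the list differed by 1.24-fold over the 6 libraries, against 3.88-fold for the 40 members. Single genes went in opposite directions behind this sum. Among the DSS mice, Cdkn1a, Cdkn1b, Cdkn1c, Cdkn2b, Rb1 and Rbl2 were lowest in DSS 1. Cdkn2c, Cdkn2d, Rbl1 and E2f4 were highest there, and E2f5 lay between. Of the 12 listed, 11 passed the filter (Cdkn2a did not), edgeR called 0 and the median log2 fold change was 0.11. Rb1, the retinoblastoma protein that restrains E2F, had 46.9, 53.4 and 51.8 CPM against 67.7, 60.5 and 68.0 CPM, without overlap, and a log2 fold change of 0.37 (SE 0.12, edgeR adjusted p-value 0.343). It was the 1 gene of this list with an unadjusted edgeR p-value under 0.05. Rbl1 (0.46) and Rbl2 (-0.24), its relatives, came next by p-value, and Rbl2 was lower without overlap, at 61.8, 75.4 and 62.0 CPM against 53.1, 56.4 and 59.3 CPM. DESeq2 also called 0 genes in each of these 4 other lists. At an unadjusted DESeq2 p-value under 0.05, 1 gene was higher in each list, and 1 was lower among the other S phase genes. Of the 14579 tested genes, 714 were higher and 1425 lower at that threshold. Groups without overlap were found for 11.3% of tested genes on the lower side and 6.37% on the higher side.

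Markers of cell types that hold or accompany dividing cells are given beside these values. The score of the 15 epithelial markers was lowest in DSS 1 at -0.57, with -0.10 and -0.11 in DSS 2 and 3 and 0.04, 0.47 and 0.26 in the DSS+BV mice. Their summed level was 19296 to 29350 CPM with DSS and 32935 to 48838 CPM with DSS+BV. Single genes weighed heavily in these sums. Muc2 had 2339, 10171 and 4239 CPM in the DSS mice and 6878, 8265 and 20700 CPM in the DSS+BV mice. Car1 had 825, 1041 and 939 CPM against 924, 10453 and 8702 CPM. Of the 15 markers, 5 were higher in every DSS+BV mouse than in any DSS mouse, against 6.37% of tested genes. A log2 fold change above 0 was found for 13 of 15, and Tff3 (-0.48) and Fcgbp (-0.07) were below 0. All 10 crypt stem markers were tested, with scores of -0.15, -0.14 and -0.59 against -0.32, 0.62 and 0.60 and summed levels of 274 to 387 and 313 to 404 CPM. The log2 fold change was above 0 for 8 of 10 crypt stem markers and below 0 for Smoc2 and Lrig1. In the epithelial and crypt stem lists edgeR called 0 genes. DESeq2 called 1 higher in each, Car1 and Lgr5, against 0.291% of genes. The Car1 value of DSS+BV 1 lay inside the DSS range, so its groups overlapped. Lgr5 had 0.240, 0.622 and 0.349 CPM in the DSS mice and 0.462, 6.75 and 5.37 CPM in the DSS+BV mice (DESeq2 adjusted p-value 0.0148, edgeR 0.318). Single crypt stem markers differed in their order of mice, as a pair chosen after their values were seen shows. Axin2, a target of Wnt signalling, had 18.7, 4.85 and 6.0 CPM in the DSS mice and 9.23, 12.6 and 15.2 CPM in the DSS+BV mice, so that every DSS+BV mouse lay below DSS 1 and above the other DSS mice. Smoc2 was lowest in DSS 1, with 7.96, 47.1 and 17.6 CPM against 10.2, 18.7 and 20.4 CPM.

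B cells of germinal centres divide fast, and B cell markers varied widely between mice. The 8 B cell markers scored 1.68, -1.61 and 2.37 in the DSS mice and 2.23, -2.58 and -2.10 in the DSS+BV mice, with summed levels of 17.6 to 293 CPM with DSS and 8.86 to 262 CPM with DSS+BV. Germinal centre markers, 8 of 9 of which passed the filter (Mef2b, at 0 in 1 library, did not), scored 0.43, -1.09 and 1.56 against 1.38, -1.33 and -0.94, and their summed levels were 37.8 to 123 and 32.0 to 106 CPM. Neutrophil markers scored 1.7, 1.24 and 1.80 against -1.12, -1.52 and -2.09, and 6 of 8 were called lower by edgeR, against 0.0892% of tested genes. Fibroblast markers scored 0.41, 0.51 and 0.58 against -0.18, -0.68 and -0.64, and edgeR called 0 of 7. DESeq2 called 7 neutrophil and 3 fibroblast markers lower, against 1.78% of genes. Neither tool called a B cell or germinal centre marker. The part of epithelial, crypt stem, B cell, germinal centre, neutrophil and fibroblast content in the members' values was not tested.

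**Figure D5:**
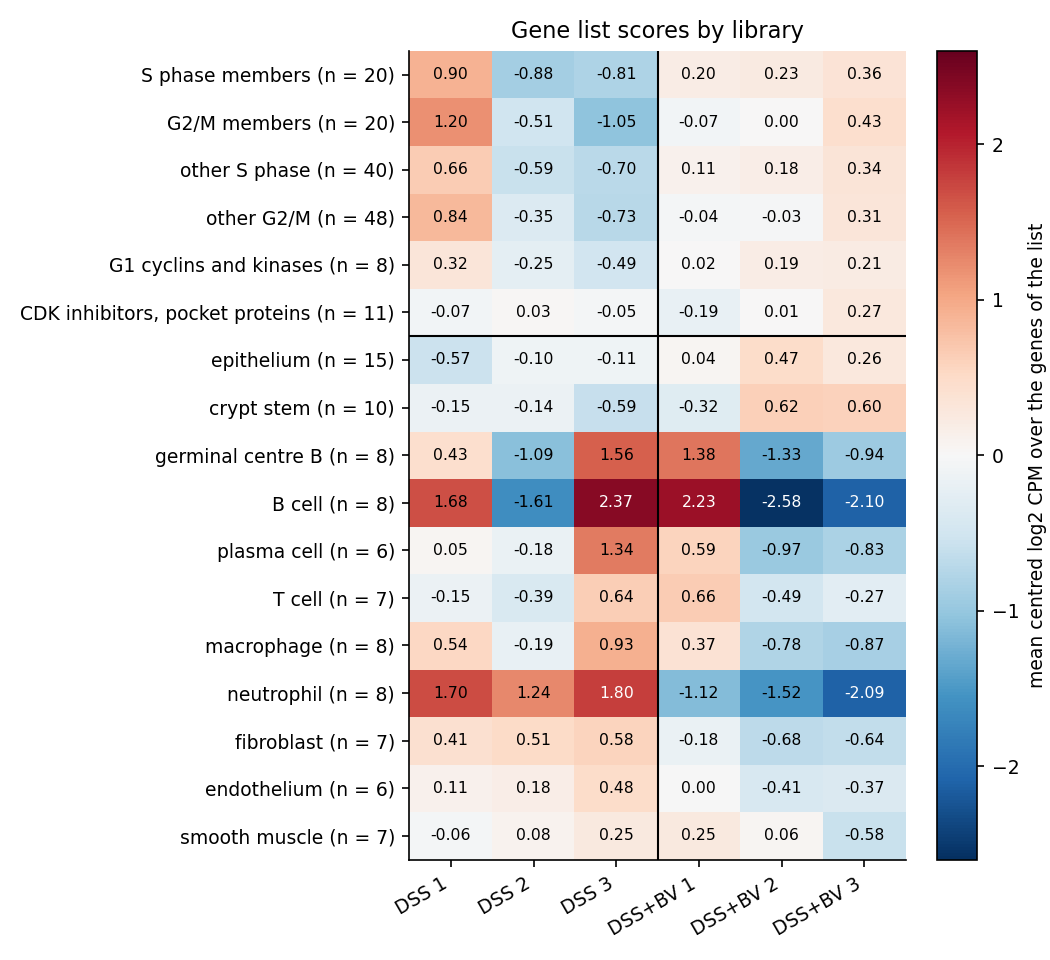
Score of each gene list in each library, as the mean over its genes of log2 CPM centred on the mean of the 6 libraries, with the number of genes tested in brackets. Cell cycle lists stand above the horizontal line and cell type markers below it, and the DSS 1 column is high for the S phase (0.90) and G2/M (1.2) members and low for epithelium (-0.57).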

How the data were processed

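Colon RNA of 3 DSS and 3 DSS+BV mice was sequenced on a DNBSEQ-T7 instrument, 1 library per mouse. The authors quantified genes with RSEM and deposited expected counts per gene, not scaled between libraries. The submitters' processing notes name HISAT2 2.1.0, Bowtie2 2.2.5, RSEM 1.2.8 and GRCm38.p6. The gene annotation and the strand setting are not given in the sources used here.

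After rounding the expected counts, low genes were removed by filterByExpr (minimum count 10, minimum total 15) and TMM factors were applied. DSS+BV and DSS were compared by the quasi-likelihood F-test in edgeR 4.0.16 (R 4.3.3). P-values were adjusted by Benjamini-Hochberg over 14579 genes, at a biological coefficient of variation of 32.1% and prior degrees of freedom of 2.68. The fit was tested first on simulated data in which no mouse deviated over many genes together. That test therefore does not bear on the DSS 1 pattern. The edgeR p-values set the group difference against the spread between these mice, 1 library each, moderated over all tested genes. With 3 against 3 mice the smallest two-sided p of an exact permutation test is 0.1. Scores used log2 CPM with a prior count of 2. DESeq2 1.42.0 was an alternative, beside RLE and upper-quartile factors, other filters, a robust fit, the replicate number as a block and each library left out in turn. Of the members' values, only some of Tyms were not whole numbers. Positions, transcript lengths and promoters came from RefSeq (GRCm38.p6) and GENCODE M21, and figures were drawn with matplotlib 3.10.9.

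The members, gene lists and tests were chosen with earlier results of these data known. Every library value is given for the 5 members of each phase with the smallest edgeR p-value and for 12 members chosen by role, and up to 3 genes with the smallest p-value for each other pathway list. The printed promoter stretches hold at most 26 exon bases. No set test was run.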

Additional observations from a re-analysis of the deposited data

How the results depend on the processing

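Across all tested genes the number called moved most with the test. DESeq2 called 281 genes lower and 46 higher in place of 13 and 0, the replicate block called 0 lower, and with 1 library left out edgeR called 0 to 3 lower and 0 to 4 higher. The members gave 0 calls in edgeR under every alternative listed in the methods, and 0 to 21 higher calls (21 without DSS 1) and 0 lower calls in DESeq2 with 1 library left out. In those DESeq2 fits 0.0779% to 2.27% of all genes were called higher and 0.695% to 4.22% lower. Their median log2 fold change ranged with 1 library left out from -0.18 (without DSS 3) to 1.01 (without DSS 1) over all 40, from -0.0055 to 1.08 over S phase and from -0.39 to 0.92 over G2/M. The S phase minus G2/M difference stayed positive, at 0.22 to 0.43 in the other alternatives and 0.18 to 0.48 with 1 library left out. Upper-quartile factors moved the median of all genes from -0.01 to -0.06. Same-numbered mice did not deviate together in all pairs (correlations of 0.27, 0.25 and -0.30, and of the DSS mice DSS 1 alone correlated best with its own number). The labels name no pairing and the main fit used none, but so few correlations cannot exclude one. With the replicate block the members' adjusted p-values in edgeR were 0.586 to 0.997 and their median was 0.41. The sign of the log2 fold change turned with the replicate block for Gins2 (0.25), Ccnb1 (0.094), Ccnb2 (0.21), Cdk1 (0.26), Plk1 (0.23), Aurka (0.21), Cenpe (0.019), Cenpf (0.092), Kif20a (0.20), Tpx2 (0.039) and Birc5 (0.0075). Cdk1 also turned with DESeq2 (0.012), RLE factors (0.0076), every gene with a count kept (0.031) and CPM over 1 required in 3 libraries (0.012), and Bub1b (-0.031) and Ube2c (-0.043) with upper-quartile factors. With 1 library left out the sign turned at least once for 31 members, and all of these were highest without DSS 1: Aurka -0.61 to 0.92, Aurkb -0.23 to 1.22, Birc5 -0.64 to 0.63, Bub1 -0.21 to 1.26, Bub1b -0.34 to 0.86, Ccna2 -0.34 to 1.09, Ccnb1 -0.69 to 0.77, Ccnb2 -0.49 to 0.85, Ccne1 -0.060 to 1.11, Cdc20 -0.72 to 0.63, Cdc45 -0.076 to 1.22, Cdk1 -0.35 to 0.85, Cenpe -0.57 to 0.60, Cenpf -0.43 to 0.53, E2f1 -0.081 to 0.92, Foxm1 -0.15 to 1.09, Gins2 -0.40 to 0.92, Kif11 -0.33 to 0.98, Kif20a -0.55 to 0.92, Mcm10 -0.027 to 1.13, Mcm3 -0.12 to 1.11, Mcm4 -0.077 to 0.90, Mcm5 -0.069 to 1.42, Mki67 -0.30 to 0.99, Plk1 -0.63 to 1.0, Rrm1 -0.15 to 1.06, Rrm2 -0.14 to 1.13, Top2a -0.28 to 1.03, Tpx2 -0.77 to 0.77, Tyms -0.014 to 0.74, Ube2c -0.35 to 1.07. The cause was not tested. The members had 65 to 6693 expected counts per library, and the part of depth in these comparisons was not tested.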
